A study of Arabidopsis thaliana with 18 samples.

Results

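The aquaporin family of Arabidopsis thaliana was taken as the 35 loci that encode major intrinsic proteins, 13 PIP, 10 TIP, 9 NIP and 3 SIP genes, out of 27416 genes in the count table. Gene names are written with a hyphen, as in PIP1-1, for names that are also written with a semicolon. The libraries were made from polyA RNA of whole seedlings 7 days old. WT, an ire1b mutant and an ire1a/ire1b double mutant (ire1a1b here) received DMSO, the solvent control, or tunicamycin (TM), which blocks N-glycosylation and so loads the endoplasmic reticulum (ER) with misfolded protein. TM was used at 5 µg/mL in liquid medium for 6 h, and each of the 6 groups had 3 libraries. IRE1A and IRE1B encode ER stress sensors, and the labels do not name the mutant alleles.

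Aquaporins are membrane channels that let water and some small uncharged solutes cross a membrane. PIPs sit mainly in the plasma membrane, TIPs in the tonoplast around the vacuole, and SIPs in the ER. NIPs are a more mixed group that passes solutes such as boric acid, glycerol or arsenite. All of them are inserted at the ER, and PIPs and TIPs then travel on, with PIP1 proteins needing PIP2 partners to leave it.

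Promoter windows are shown for TIP4-1, NIP1-1, NIP5-1 and SIP1-1, which are 4 of the 5 members whose TM response differed between genotypes in the tests below, with that of BIP3, an ER chaperone gene and known target of the stress response, beside them. Each is the 250 bases before the annotated start, read from the TAIR10.1 reference genome 5′ to 3′ on the gene's strand. The windows are chr2:11012249-11012498 (plus strand) for TIP4-1, chr4:10423509-10423758 (minus) for NIP1-1, chr4:6435397-6435646 (minus) for NIP5-1, chr3:1074245-1074494 (minus) for SIP1-1 and chr1:2931851-2932100 (minus) for BIP3. Capitals mark matches, on either strand, to the G-box CACGTG, its core ACGT, the UPR element core TCATCG, the ER stress element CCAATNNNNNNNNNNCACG or the W-box core TTGAC, and neighbouring matches may overlap.
TIP4-1: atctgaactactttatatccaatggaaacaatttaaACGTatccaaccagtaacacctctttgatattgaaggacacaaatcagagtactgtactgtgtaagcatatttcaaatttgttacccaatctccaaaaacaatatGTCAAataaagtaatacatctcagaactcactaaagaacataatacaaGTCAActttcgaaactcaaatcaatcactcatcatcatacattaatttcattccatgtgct
NIP1-1: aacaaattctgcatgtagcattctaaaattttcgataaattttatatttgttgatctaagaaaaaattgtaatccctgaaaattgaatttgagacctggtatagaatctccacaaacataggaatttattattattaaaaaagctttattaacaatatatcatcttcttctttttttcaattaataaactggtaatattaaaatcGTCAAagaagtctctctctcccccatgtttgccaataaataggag
NIP5-1: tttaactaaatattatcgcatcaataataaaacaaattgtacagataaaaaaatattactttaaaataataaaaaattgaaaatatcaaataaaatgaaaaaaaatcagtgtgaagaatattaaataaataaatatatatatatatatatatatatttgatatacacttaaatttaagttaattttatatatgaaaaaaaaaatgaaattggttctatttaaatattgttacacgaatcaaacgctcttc
SIP1-1: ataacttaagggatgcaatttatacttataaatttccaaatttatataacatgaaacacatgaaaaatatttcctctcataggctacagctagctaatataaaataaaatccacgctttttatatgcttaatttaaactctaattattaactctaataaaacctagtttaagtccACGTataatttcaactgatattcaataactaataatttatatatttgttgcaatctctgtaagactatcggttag
BIP3: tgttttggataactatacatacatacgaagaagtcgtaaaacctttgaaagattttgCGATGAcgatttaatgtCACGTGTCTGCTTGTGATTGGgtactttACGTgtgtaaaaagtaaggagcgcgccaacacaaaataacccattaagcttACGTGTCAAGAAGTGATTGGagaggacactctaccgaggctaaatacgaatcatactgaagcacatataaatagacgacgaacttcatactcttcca

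The BIP3 window held 1 G-box, 1 TCATCG, 2 ER stress elements, 3 ACGT cores and 1 TTGAC. None of the 35 aquaporin windows held a G-box, TCATCG or ER stress element, which 6.49%, 6.45% and 0.689% of 27443 promoters of this length held. ACGT was present in 14 of the 35 (40%, against 44.1% of all promoters) and TTGAC in 19 (54.3%, against 44.9%). The NIP5-1 window matched no motif, SIP1-1 had 1 ACGT, NIP1-1 had 1 TTGAC, and TIP4-1 had 1 ACGT and 2 TTGAC. The windows of TIP1-3, TIP3-1, TIP5-1, NIP2-1, NIP3-1, NIP7-1 and SIP2-1 reach into an exon of a neighbouring locus. These matches describe letters in the windows only.

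Libraries held 16347549 to 24848852 gene counts, of which the aquaporins took 0.2784% to 0.732%. BIP3 rose in every TM group (log2 fold change 10.09 in WT, 7.94 in ire1b and 6.31 in ire1a1b). IRE1A was lower in ire1a1b than in WT with DMSO (log2 -2.01 ± 0.07 SE, adjusted p = 4.7e-10, edgeR), whereas IRE1B was not lower in either mutant label (log2 0.36 ± 0.11 in ire1b, adjusted p = 0.88, and 0.23 ± 0.11 in ire1a1b, adjusted p = 1). The ire1b part of both labels was therefore not seen in the counts, and ire1b and ire1a1b below mean the libraries so labelled. The replicate 1 libraries of WT and ire1a1b, 4 in all, formed a set of their own, at 31 to 47.5 on the second principal component against -27.1 to 3.51, and counts of called members are given with and without these 4 libraries that stood apart. Nothing in the labels says that replicates were grown separately, so the spread behind each p-value may be technical. In whole seedlings, fewer cells of a type and less RNA per cell cannot be told apart.

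Levels were compared between genes only per length, as RPKM, the library-scaled counts divided by exon length in kilobases, averaged over the 9 DMSO libraries. The family was led by tonoplast TIP1-2, at 747 ± 215 (SD), which was 21.4% of the family's summed level and rank 37 of 26719 genes, and by TIP2-1, at 498 ± 157. PIP1-2 (322 ± 89.4), PIP2-7 (250.4 ± 38.5), PIP2-1 (244 ± 50.7), tonoplast TIP1-1 (235 ± 28.5), PIP1-1 (229 ± 43.5), PIP2-2 (212 ± 35.2) and PIP1-3 (190.3 ± 39.0) came next. The library ranges of neighbours in this order overlapped, but within each of the 9 libraries TIP1-2 was above TIP2-1 (1.41 to 1.67 times), TIP2-1 above PIP1-2 and PIP1-2 above PIP2-7. From PIP2-7 to PIP1-3 the order of neighbours changed in at least 1 library.

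The ER aquaporins were intermediate, with SIP1-1 at 52.5 ± 4.15, SIP2-1 at 25.9 ± 1.30 and SIP1-2 at 22.6 ± 3.26 RPKM. The highest NIP was NIP5-1, the plasma membrane boric acid channel, at 26.5 ± 3.72. TIP4-1 (8.20 ± 0.615) and NIP1-1 (4.73 ± 0.576) were low, and seed-type TIP3-1 and TIP3-2 and the NIP7-1 gene stood below 1. TIP5-1 and NIP4-1 had no count in any library, TIP1-3 had 4 counts in all and NIP4-2 had 34 counts in 13 libraries. These 4 did not pass the filter on low counts, and 31 members were tested. TIP2-1, TIP3-1, TIP3-2, TIP5-1, NIP2-1, NIP6-1, SIP1-2 and SIP2-1, 8 members in all, overlap a locus on the other strand, and no source used here gives the strand setting of the counting, so reads of these genes and their partners could not be separated.

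**Figure D1:**
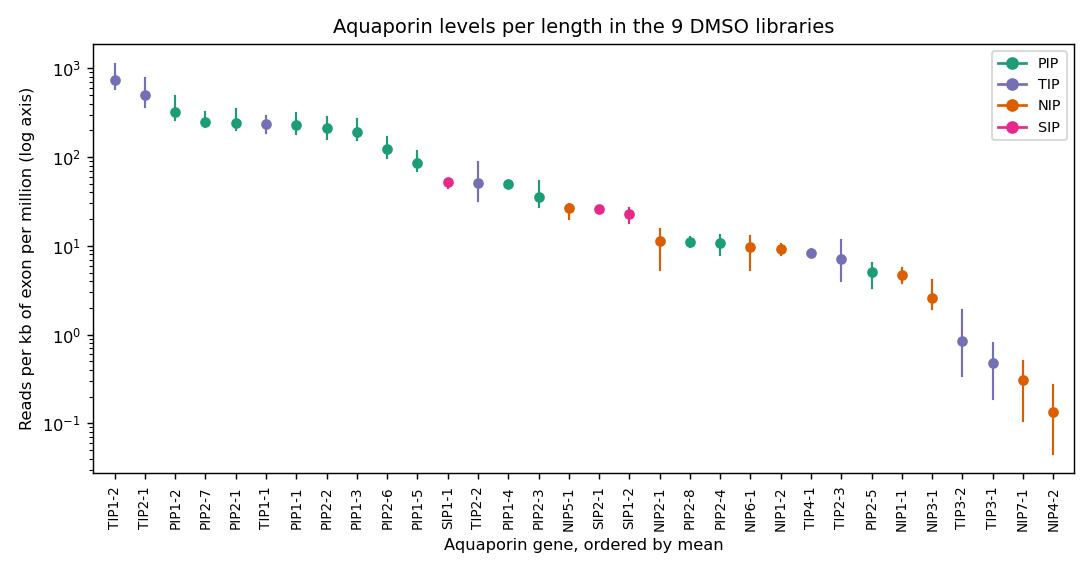
Mean level per length (points, RPKM, log axis) and range (lines) over the 9 DMSO libraries for the 32 aquaporin genes with a count in every DMSO library, coloured by subfamily. TIP1-2 and TIP2-1 stand highest, PIP genes fill most of the next places, and NIP genes stand at 26.5 RPKM or below.

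The first question was which aquaporins TM changed in WT. At adjusted p below 0.05 (edgeR quasi-likelihood test, Benjamini-Hochberg adjustment over 20615 genes), 10 of the 31 fell and 0 rose, where 5.77% of all tested genes fell, 6.13% rose and 11.9% were called in either direction. The median log2 fold change of all 31 tested members was -0.53, against -0.02 over all tested genes. The 10 were 4 of 13 PIPs, 2 of 8 tested TIPs, 2 of 7 tested NIPs and 2 of 3 SIPs, so plasma membrane, tonoplast and ER members were all among them. The medians were -0.50 for PIP, -0.77 for TIP, -0.54 for NIP and -0.35 for SIP genes, and no test was made between subfamilies.

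The number depended on single libraries. Without the 4 libraries that stood apart, 19 of 31 fell in WT (17.5% of all genes were then called), and with replicate number as a block 21 fell (20.1% called), among them 11 of 13 PIPs and 5 of 8 TIPs. Leaving out WT TM replicate 1 gave 16 falls and leaving out WT TM replicate 3 gave 6. The share over all genes is not given for these runs, so their counts cannot be set against it. With only the WT groups fitted, 4 fell (4.22% called). PIP2-7 lost its call without WT DMSO replicate 1 or WT TM replicate 3.

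PIP2-4 (AT5G60660, chromosome 5, 24375368 to 24377206), a plasma membrane water channel, had the most negative log2 fold change in WT. It stood at 19.1, 18.3 and 18.5 CPM, the counts scaled to library size, with DMSO and at 11.4, 7.09 and 8.16 with TM. The groups did not overlap, and the log2 fold change was -1.07 ± 0.14 (SE, n = 3 per group, adjusted p = 0.00012). Tonoplast TIP4-1 fell 1.96-fold (-0.97 ± 0.11, adjusted p = 1.4e-05). SIP1-2, of the ER, fell 1.85-fold (-0.89 ± 0.16, adjusted p = 0.0014), from 25.6, 32.7 and 32.0 to 18.6, 16.4 and 13.7 CPM, again with no overlap.

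The other falls in WT were smaller. Tonoplast TIP1-1, at 357, 296 and 304 CPM with DMSO, stood at 241, 174 and 153 with TM (log2 -0.75 ± 0.15, adjusted p = 0.0042). PIP2-7, a plasma membrane water channel, went from 504, 399.9 and 346 to 294, 285 and 225 CPM (-0.64 ± 0.15, adjusted p = 0.0091). In both genes every TM library was below every DMSO library, and in both replicate 1 was the highest of its group. NIP1-1, which can pass arsenite, fell by 0.88 ± 0.18 on the log2 scale (adjusted p = 0.0043). PIP2-8 changed by -0.44 ± 0.09 (adjusted p = 0.0066), NIP1-2, linked to aluminium tolerance, by -0.47 ± 0.14 (adjusted p = 0.038), SIP1-1 by -0.35 ± 0.09 (adjusted p = 0.018) and PIP1-4 by -0.31 ± 0.09 (adjusted p = 0.046). The PIP1-4 call was lost in 19 of 27 alternative analyses and that of NIP1-2 in 13.

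TIP1-2 and TIP2-1, the most abundant members, did not pass the test in WT although their TM libraries lay below their DMSO libraries. TIP1-2 stood at 1462, 843 and 854 CPM with DMSO and at 811, 496 and 414 with TM (log2 -0.88 ± 0.30, adjusted p = 0.072). TIP2-1 stood at 902, 508 and 524 and at 506, 295 and 208 (-0.94 ± 0.33, adjusted p = 0.086). In each group replicate 1 was far above the other replicates. With replicate number as a block both were called (adjusted p = 0.0062 and 0.011), as they were without the 4 libraries that stood apart (3.4e-05 and 0.00070) and by DESeq2 (0.029 and 0.037).

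**Figure D2:**
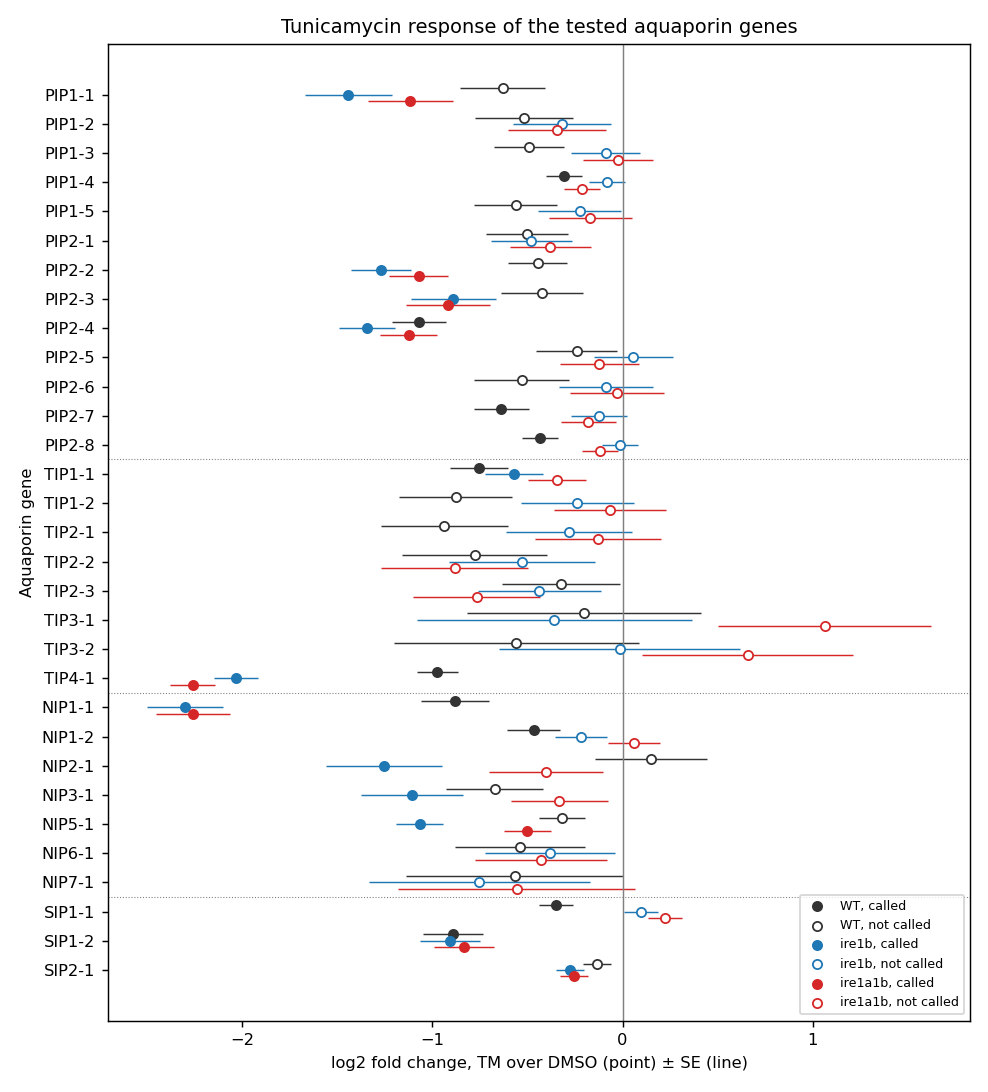
Log2 fold change of TM over DMSO (points) with SE (lines) for the 31 tested aquaporin genes in WT, ire1b and ire1a1b, grouped by subfamily. Filled points passed adjusted p below 0.05. Every filled point lies left of 0, and TIP4-1 and NIP1-1 lie beyond -2 in both mutant labels and between -1 and 0 in WT.

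In the libraries labelled ire1b, 12 of 31 aquaporins fell with TM and 0 rose, where 11.6% of all genes fell, 10.9% rose and 22.5% were called in either direction (median -0.38, against -0.01 over all genes). They were 4 of 13 PIPs, 2 of 8 TIPs, 4 of 7 NIPs and 2 of 3 SIPs. The medians over all tested members of these subfamilies were -0.22, -0.40, -1.07 and -0.27. In ire1a1b, 9 fell and 0 rose, where 6.59% of all genes fell, 8.27% rose and 14.9% were called (median -0.34, against -0.02). They were 4 of 13 PIPs, 1 of 8 TIPs, 2 of 7 NIPs and 2 of 3 SIPs. The medians over all tested members of these subfamilies were -0.21, -0.24, -0.43 and -0.25. Without the 4 libraries that stood apart, 16 fell in ire1b (33.3% of all genes called), and 12 fell and 2 rose in ire1a1b (17.9%). With the replicate block, 13 fell in ire1b (31.5%), and 12 fell and 1 rose in ire1a1b (23.5%). PIP2-4, TIP4-1, NIP1-1 and SIP1-2 fell in all 3 genotypes.

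The 14 tested members called in no genotype by the edgeR test without a block were PIP1-2, PIP1-3, PIP1-5, PIP2-1, PIP2-5, PIP2-6, TIP1-2, TIP2-1, TIP2-2, TIP2-3, TIP3-1, TIP3-2, NIP6-1, which carries boric acid in shoots, and NIP7-1, an anther gene. With the replicate block 8 of these 14 fell in WT, namely PIP1-2, PIP1-3, PIP1-5, PIP2-1, PIP2-6, TIP1-2, TIP2-1 and TIP2-2, and the same 8 fell in WT without the 4 libraries that stood apart. Without those 4 libraries PIP1-2, PIP2-1, TIP1-2 and TIP2-2 also fell in ire1b. In ire1a1b PIP1-2 and TIP2-2 then fell, and TIP3-1 and TIP3-2 rose. TIP2-2 gave -0.52 in ire1b (adjusted p = 0.0018) and -0.93 in ire1a1b (adjusted p = 0.00026). PIP1-2 gave -0.31 (adjusted p = 0.0010) and -0.25 (adjusted p = 0.027). With the replicate block PIP2-1 fell in ire1b and TIP2-2 in ire1a1b. In the same-numbered pairs, 27 of all 31 members were lower with TM in 3 of 3 in WT, 25 in ire1b and 20 in ire1a1b. Those higher in 3 of 3 were 0, 1 and 1. The share over all genes was not computed for these counts. PIP1-4, PIP2-7, PIP2-8, NIP1-2 and SIP1-1 were called in WT and in neither mutant label. PIP2-7 stood at 356, 374 and 371 CPM with DMSO and 345, 352 and 313 with TM in ire1b, and at 510.4, 376 and 375 and 408, 366 and 341 in ire1a1b (log2 -0.12 and -0.18). Its groups overlapped in ire1a1b only. The differences of PIP1-4, PIP2-7, PIP2-8 and NIP1-2 from WT did not pass in either label without a block (adjusted p from 0.11 to 0.86). With the replicate block those of PIP2-7 did, in ire1b (0.50, adjusted p = 0.037) and ire1a1b (0.46, adjusted p = 0.044), as did that of NIP1-2 in ire1a1b. A block within each genotype also called PIP1-4 (adjusted p = 0.025) and PIP2-8 (adjusted p = 0.018) in ire1b.

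TIP4-1 (AT2G25810, chromosome 2, 11012499 to 11014171), a tonoplast water channel gene, gave the smallest adjusted p among the members in each genotype. It stood at 8.96, 9.98 and 10.9 CPM in WT with DMSO and at 4.67, 5.55 and 4.95 with TM. In ire1b it went from 9.18, 8.82 and 9.34 to 2.16, 2.30 and 2.21. In ire1a1b it went from 10.2, 9.03 and 10.2 to 2.12, 1.68 and 2.28. The 9 DMSO libraries lay together, the 3 WT libraries with TM lay lower, and all 6 mutant libraries with TM lay below those. The falls were 1.96-fold in WT, 4.09-fold in ire1b (log2 -2.03 ± 0.12, adjusted p = 3.0e-09) and 4.80-fold in ire1a1b (-2.26 ± 0.12, adjusted p = 1.5e-09).

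NIP1-1 (AT4G19030, chromosome 4, 10421521 to 10423508) had the same order of groups at a lower level. It stood at 5.51, 6.47 and 6.16 CPM in WT with DMSO and at 2.85, 3.66 and 3.31 with TM. In ire1b it went from 7.49, 7.40 and 6.08 to 1.04, 1.90 and 1.34, and in ire1a1b from 8.06, 7.26 and 7.33 to 1.14, 1.68 and 1.94. No mutant library with TM reached the WT libraries with TM. The falls were 4.93-fold in ire1b (log2 -2.30 ± 0.20, adjusted p = 4.1e-07) and 4.79-fold in ire1a1b (-2.26 ± 0.19, adjusted p = 5.3e-07).

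NIP5-1 (AT4G10380, chromosome 4, 6431161 to 6435396), which takes up boric acid into root cells, stood at 43.5, 54.9 and 62.7 CPM in WT with DMSO and at 41.9, 41.7 and 45.4 with TM. In ire1b it went from 63.3, 61.8 and 64.7 to 27.8, 31.4 and 31.5, and in ire1a1b from 45.3, 56.9 and 63.8 to 37.2, 39.5 and 40.5. The WT groups overlapped and the mutant groups did not. The fall was 2.09-fold in ire1b (log2 -1.07 ± 0.12, adjusted p = 1.1e-05) and 1.41-fold in ire1a1b (-0.50 ± 0.12, adjusted p = 0.011), while the WT value was -0.32 ± 0.12 and did not pass (adjusted p = 0.11). With the replicate block NIP5-1 was called in WT as well (-0.31, adjusted p = 0.016). The ire1a1b call was lost without ire1a1b DMSO replicate 3 and when only the ire1a1b groups were fitted (adjusted p = 0.072).

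Among plasma membrane members, PIP1-1, PIP2-2 and PIP2-3 were called in both mutant labels and not in WT. PIP2-2 (AT2G37170, chromosome 2, 15613368 to 15615022), a water channel of roots, stood at 378, 251 and 330.1 CPM in WT with DMSO and at 272, 206 and 227 with TM. In ire1b it went from 274, 255 and 280.1 to 116, 110.1 and 109.7 (log2 -1.27 ± 0.16, adjusted p = 2.2e-05), and in ire1a1b from 302, 217 and 281 to 148, 125 and 107 (-1.07 ± 0.16, adjusted p = 0.00017). Only the WT groups overlapped among these 3 pairs (-0.44 ± 0.16, adjusted p = 0.080). With the replicate block PIP2-2 was called in WT too (-0.44, adjusted p = 0.0074).

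PIP1-1 had the largest fall of the PIP genes, in ire1b, from 354, 313 and 334 to 131, 121 and 117 CPM (log2 -1.44 ± 0.23, adjusted p = 0.00023). In ire1a1b its log2 fold change was -1.12 ± 0.22 (adjusted p = 0.0028) and in WT -0.63 ± 0.22 (adjusted p = 0.083), which the replicate block called (adjusted p = 0.0054). PIP2-3 gave -0.89 ± 0.22 in ire1b (adjusted p = 0.0086), -0.92 ± 0.22 in ire1a1b (adjusted p = 0.0098) and -0.42 ± 0.22 in WT (adjusted p = 0.26). The differences from WT did not pass for PIP1-1 (-0.81 ± 0.31 in ire1b, adjusted p = 0.23, and -0.49 ± 0.31 in ire1a1b, adjusted p = 0.52) or PIP2-3 (adjusted p = 0.64 and 0.49). That of PIP1-1 in ire1b was called with the replicate block (adjusted p = 0.020) and without the 4 libraries that stood apart (-0.78, adjusted p = 0.037), and that of PIP2-3 in ire1a1b with a block within each genotype (adjusted p = 0.044). PIP2-2 and PIP2-3 lie 2612 bases apart and share an identical transcript stretch of 242 bases, so their counts may be partly split or lost between them. The next longest stretch shared by any pair of members was 74 bases.

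PIP2-4 fell in ire1b (log2 -1.34 ± 0.15, adjusted p = 6.2e-06) and in ire1a1b (-1.12 ± 0.15, adjusted p = 6.7e-05) by amounts close to its WT value of -1.07. NIP2-1, a lactic acid channel induced by low oxygen, fell in ire1b from 20.2, 14.9 and 20.8 to 6.83, 7.35 and 9.25 CPM (-1.25 ± 0.31, adjusted p = 0.0073). The other NIP that fell in ire1b was NIP3-1 (-1.11 ± 0.27, adjusted p = 0.0067), at 1.60 to 5.89 CPM in those libraries. Neither was called in WT (0.15 and -0.67) or in ire1a1b (-0.40 and -0.33), and neither difference between ire1b and WT passed the edgeR test (adjusted p = 0.089 and 0.78). That of NIP2-1 (-1.40 ± 0.42) was called by DESeq2 (adjusted p = 0.025), with the replicate block (0.048), with only the 4 groups compared (0.0041) and without the libraries that stood apart (0.014). TIP1-1 fell in ire1b (-0.57 ± 0.15, adjusted p = 0.013) and did not pass in ire1a1b (-0.34 ± 0.15, adjusted p = 0.16), where the replicate block called it (adjusted p = 0.036).

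The 3 ER aquaporins differed among themselves. SIP1-2 fell by nearly the same amount in each genotype (log2 -0.89 ± 0.16 in WT, -0.91 ± 0.16 in ire1b and -0.84 ± 0.16 in ire1a1b, adjusted p = 0.0014, 0.00057 and 0.0016). SIP2-1 fell slightly in ire1b (-0.27 ± 0.07, adjusted p = 0.013) and ire1a1b (-0.25 ± 0.07, adjusted p = 0.029, lost in 5 of 27 alternatives), and gave -0.14 ± 0.07 in WT (adjusted p = 0.28).

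SIP1-1 (AT3G04090, chromosome 3, 1071984 to 1074244) fell in WT, from 61.2, 71.5 and 73.8 to 52.0, 56.2 and 53.7 CPM. It stood at 64.8, 69.5 and 72.5 with DMSO and 68.1, 75.8 and 77.2 with TM in ire1b, and at 58.3, 67.6 and 71.4 and 72.1, 83.3 and 75.2 in ire1a1b. In the mutant labels each TM library was above the DMSO library of the same number. The log2 fold changes there were 0.10 ± 0.09 (adjusted p = 0.52) and 0.23 ± 0.09 (adjusted p = 0.11), and with the replicate block the rise in ire1a1b was called (0.23, adjusted p = 0.0055). The WT call was lost in 5 of 27 alternatives, among them leaving out WT DMSO replicate 2 or 3 or WT TM replicate 1 or 3.

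**Figure D3:**
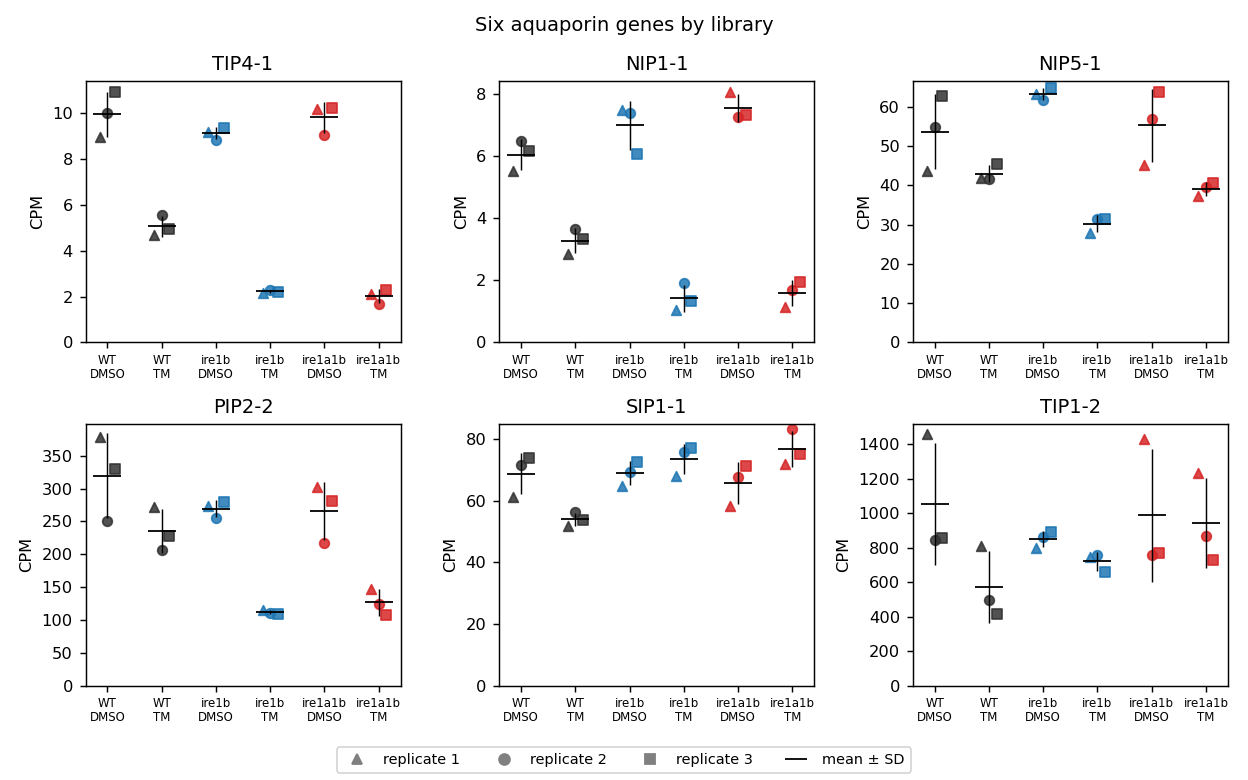
CPM of 6 aquaporin genes in each of the 18 libraries (symbols by replicate number), with the mean and SD of each group (lines), on linear axes from 0. TIP4-1 and NIP1-1 reach their lowest values in the mutant libraries with TM, SIP1-1 is lowest in WT with TM, and TIP1-2 is highest in replicate 1 of WT and ire1a1b.

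The second question was whether the TM responses themselves differed between genotypes, tested as interaction terms. Against WT, 4 of 31 members responded differently in ire1b (4.15% of all genes called), each with a lower fold change in ire1b. The log2 differences were -1.06 ± 0.16 for TIP4-1 (adjusted p = 0.00076), -1.42 ± 0.27 for NIP1-1 (adjusted p = 0.0053), -0.75 ± 0.17 for NIP5-1 (adjusted p = 0.021) and -0.82 ± 0.22 for PIP2-2 (adjusted p = 0.047). PIP2-2 lost its call in 13 of 27 alternatives and NIP5-1 in 2. The count of members was 2 without WT TM replicate 3 and also 2 without ire1b TM replicate 1, runs whose share over all genes is not given. Without the 4 libraries that stood apart it was 9 (6.28% of all genes), 3 of them with a higher value in ire1b, among which were tonoplast TIP1-2 (0.66, adjusted p = 0.0064) and TIP2-1 (0.76, adjusted p = 0.042). With the replicate block it was 8 (7.6% of all genes), 6 lower and 2 higher. SIP1-1 did not pass the edgeR test without a block (0.45 ± 0.13, adjusted p = 0.064) and was called by DESeq2 (adjusted p = 0.032) and with the block (adjusted p = 0.0015).

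In ire1a1b, 3 members responded differently from WT (6.12% of all genes called). TIP4-1 (-1.29 ± 0.16, adjusted p = 9.0e-05) and NIP1-1 (-1.38 ± 0.27, adjusted p = 0.0045) fell further than in WT, and SIP1-1 differed in the other direction (0.58 ± 0.13, adjusted p = 0.011). These calls held in all 27 alternatives. The replicate block called 6 (11.4% of all genes), adding PIP2-2 (-0.63, adjusted p = 0.011), NIP1-2 (0.53, adjusted p = 0.028) and PIP2-7 (0.46, adjusted p = 0.044). Without the 4 libraries that stood apart there were 9 (8.28%), in which tonoplast TIP1-2 (0.95, adjusted p = 0.00070), TIP2-1 (1.02, adjusted p = 0.011) and TIP1-1 (0.56, adjusted p = 0.018) had a less negative fold change in ire1a1b than in WT.

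Between ire1a1b and ire1b no member's response differed in the edgeR test (0.776% of all genes called) or in DESeq2, and 1 had an unadjusted p below 0.05. That was NIP5-1 (log2 difference 0.57 ± 0.17, adjusted p = 0.25). The responses share their control libraries only within a genotype, and WT enters both interactions with WT.

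With DMSO, no aquaporin differed between genotypes by edgeR or DESeq2, where 0.0291% (ire1b against WT), 0.131% (ire1a1b against WT) and 0.16% (ire1a1b against ire1b) of all genes were called. The numbers with an unadjusted p below 0.05 were 0, 1 and 1, in each case PIP2-4. It stood at 12.7, 11.5 and 13.3 CPM in ire1a1b, below 19.1, 18.3 and 18.5 in WT (log2 -0.58 ± 0.14, adjusted p = 0.35), and it was called without WT TM replicate 1 (adjusted p = 0.046).

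The summed level of the subfamilies moved with replicate number as well as with TM. PIP genes summed to 2529 to 3846 CPM in WT with DMSO and 1757 to 2619 with TM, and TIP genes to 1725 to 2866 and 820.2 to 1652. In the 3 ire1b libraries with DMSO, PIP sums lay within 2503 to 2592 and TIP sums within 1597 to 1797. In WT with DMSO, replicate 1 was above both other replicates in 10 of 13 PIPs and 7 of 8 TIPs, with a median ratio of 1.45 and 1.73 to their mean, and below both in 5 of 7 NIPs (0.872) and 2 of 3 SIPs (0.842). In ire1a1b with DMSO the medians were 1.39, 1.89, 0.751 and 0.839, and in ire1b with DMSO they were 1.04, 1.00, 1.08 and 0.913. These counts and ratios were not computed over all genes, so the pattern is not shown to be particular to aquaporins. What sets these libraries apart was not tested.

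**Figure D4:**
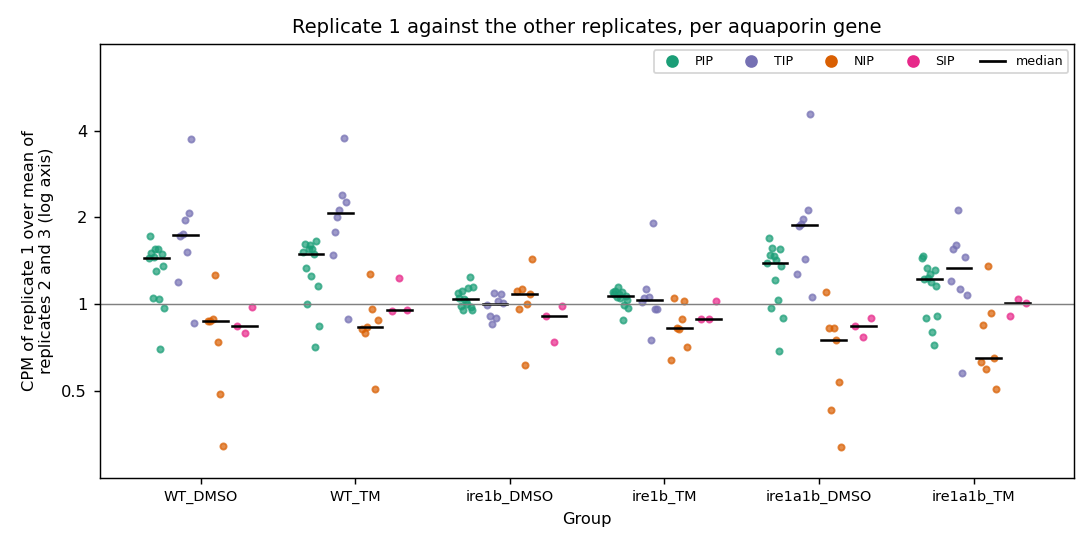
Ratio of replicate 1 to the mean of replicates 2 and 3 (CPM, log axis) for each tested aquaporin gene, by group and subfamily, with the median as a bar. PIP and TIP medians lie above 1 in WT and ire1a1b, NIP medians below 1, and those of ire1b with DMSO lie between 0.913 and 1.08.

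Seed-type TIP3-1 and TIP3-2, tonoplast proteins of seed storage vacuoles, were low and uneven between libraries. In ire1a1b, TIP3-2 stood at 2.23, 0.398 and 0.577 CPM with DMSO and at 2.21, 1.85 and 1.16 with TM (log2 0.66 ± 0.55, adjusted p = 0.53). Without the 4 libraries that stood apart its value was 1.63 (adjusted p = 0.0050), and that of TIP3-1 was 1.83 (adjusted p = 0.032). TIP3-1 reached 2.24 CPM in ire1a1b TM replicate 2 and 0.221 to 1.08 in the other 17 libraries.

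Genes of boron transport, proton pumping and aquaporin trafficking were read from the same fit. Borate exporters move boron out of cells, whereas NIP5-1 takes boric acid up, and no link of the listed genes to NIP5-1 was tested. Of 5 tested borate exporters, 0 fell in WT and 2, BOR1 and BOR2, fell in ire1b and in ire1a1b (list medians -0.23, -0.37 and -0.88). Of all genes, 5.77%, 11.6% and 6.59% fell in WT, ire1b and ire1a1b. BOR1 stood at 79.7, 90.4 and 120.4 CPM in WT with DMSO and 79.1, 76.3 and 92.7 with TM, and in ire1b it went from 112, 105 and 99.1 to 54.2, 51.3 and 45.6. The WT groups overlapped and the ire1b groups did not (log2 -1.07 ± 0.15, adjusted p = 9.8e-05, and in ire1a1b -0.92 ± 0.15, adjusted p = 0.00057). BOR2 gave -0.96 ± 0.12 in ire1b and -0.88 ± 0.12 in ire1a1b (adjusted p = 2.9e-05 and 0.00010), and -0.05 in WT. The differences from WT were called for BOR2 in both (-0.91 and -0.82, adjusted p = 0.0050 and 0.0074) and for BOR1 in ire1b (-0.84, adjusted p = 0.038).

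Of the proton pumps that energise both membranes, VHA-a2, a subunit of the vacuolar ATPase, fell in WT (log2 -0.60 ± 0.08, adjusted p = 0.00012) and ire1b (-0.34 ± 0.08, adjusted p = 0.0052), and gave 0.10 ± 0.08 in ire1a1b. Its difference between ire1a1b and WT was 0.69 ± 0.11 (adjusted p = 0.0012). The other tonoplast pump genes, AVP1 and VHA-a3, were not called in any genotype. Of 10 tested plasma membrane H+-ATPase genes, AHA1 and AHA3 fell in WT (-0.46 and -0.57, adjusted p = 0.0054 and 0.017), AHA1 fell in ire1b (-0.47, adjusted p = 0.0022), and AHA7 rose in ire1a1b (0.95, adjusted p = 0.041). Over all genes, 5.77% fell in WT, 11.6% fell in ire1b and 8.27% rose in ire1a1b.

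Of 12 genes for aquaporin trafficking and turnover, 4 rose in WT, 4 rose and 2 fell in ire1b and 2 rose in ire1a1b (medians 0.09, 0.01 and 0.09), where 6.13%, 10.9% and 8.27% of all genes rose and 11.6% fell in ire1b. TSPO, which binds PIP2-7 and sends it to degradation, rose from 0.576, 0.365 and 0.621 to 1.96, 1.90 and 1.53 CPM in WT (log2 1.78 ± 0.31, adjusted p = 0.0011). It rose in ire1b as well (2.13 ± 0.34, adjusted p = 0.00023) and gave 0.32 ± 0.41 in ire1a1b (adjusted p = 0.72), a difference from WT that did not pass (-1.47 ± 0.52, adjusted p = 0.13). The SNARE genes SYP61 and VAMP721, which act in delivery to the plasma membrane, rose in all 3 genotypes by 0.18 to 0.42 (adjusted p from 0.00027 to 0.037). SEC24A, of the coat that carries cargo from the ER, rose in WT (0.24, adjusted p = 0.020). In ire1b the ER ubiquitin ligase genes RMA1 and RMA3 fell (-0.65 and -0.35, adjusted p = 0.016 and 0.027) and OST1, a kinase that acts on PIP2-1, rose (0.46, adjusted p = 0.024).

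Root marker genes moved with TM in the same libraries. Of all genes, 5.77%, 11.6% and 6.59% fell in WT, ire1b and ire1a1b, and 6.13%, 10.9% and 8.27% rose. Root hair markers fell in 4, 6 and 5 of 6 in WT, ire1b and ire1a1b, and their summed level went from 40.7 to 49.6 CPM to 21.5 to 26.2 in WT, from 50.5 to 52.7 to 19.3 to 22.3 in ire1b and from 49.1 to 51.2 to 18.1 to 23.8 in ire1a1b. Root endodermis markers fell in 5, 5 and 4 of 8, to a mean sum of 74.9%, 67.1% and 65.7% of the DMSO mean. Root stele markers fell in 1, 3 and 2 of 3, to 79.2%, 53.8% and 76.6%. Green shoot markers, 15 genes of photosynthesis, rose in 1, 0 and 0 and fell in none, with sums of 92.3%, 107% and 97.6% of the DMSO mean. No tested marker gene of these lists was at 0 in a whole group, and their part in the aquaporin results was not tested.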

How the data were processed

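Gene-level counts of the 18 libraries were deposited by the authors as raw counts per locus. Per the submitters' processing notes the tools were STAR 2.4.0, HTSeq 0.6.0 and DESeq2, with the TAIR10 build. Counting mode, strand setting and annotation version are not given in the sources used here. Per the labels, RNA came from whole seedlings and the libraries were paired-end with 250 nt. Rows for reads with no feature (1.202% to 1.419% of all counted reads), ambiguous reads (1.094% to 1.231%) and reads not uniquely aligned (3.331% to 3.713%) were left out of library sizes and tests.

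Counts were fitted with edgeR 4.0.16 (R 4.3.3): low-count filter by group, TMM scaling, 1 mean per group over all 18 libraries, robust quasi-likelihood test. Benjamini-Hochberg adjustment ran over 20615 tested genes in each of 9 comparisons, with calls at adjusted p below 0.05. Standard errors were taken from the log2 fold change and its F statistic. CPM used TMM-scaled library sizes, and RPKM the summed exon length in TAIR10.1, which 26719 of 27416 loci and all 35 members matched. Alternatives were RLE scaling, other filters, DESeq2 1.42.0, replicate blocks, fits to the groups compared alone and left-out libraries. Leaving out the replicate 1 libraries of WT and ire1a1b was chosen after seeing the data. The script was tested on simulated data.

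Replicate numbers came from the sample titles. A separate replicate tag in the labels conflicts with them: it gives only 1 or 2, and libraries of 1 group share a value, so it was not used, and every block, pair and left-out replicate rests on the titles. Deviations from the group means of same-numbered libraries correlated at 0.50 to 0.69 in WT, 0.15 to 0.32 in ire1b and 0.42 to 0.72 in ire1a1b. Between WT and ire1a1b they correlated at 0.34 or more. Differently numbered libraries were not compared. In WT and ire1a1b replicate 1 stood apart, which alone can make same-numbered deviations correlate. These values therefore do not show whether the numbers pair the libraries. No source used here names a pairing, so the main fit has no block, and fits with a block are given as alternatives. Replicate libraries differed beyond sampling noise, so none was counted as a repeat. Every member called in a comparison was named, as were members not tested and called genes of the partner lists. The members and lists were chosen with earlier results of these data known.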

Additional observations from a re-analysis of the deposited data

Results flagged for a closer look

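Each result here is a difference between genotypes in the TM response that passed the interaction test, given as the log2 fold change of the mutant label minus that of WT. For ire1b against WT the values were -1.06 for TIP4-1, -1.42 for NIP1-1, -0.75 for NIP5-1 and -0.82 for PIP2-2. For ire1a1b against WT they were -1.29 for TIP4-1, -1.38 for NIP1-1 and 0.58 for SIP1-1. TIP4-1 and NIP1-1 were the members called in both, and both comparisons use the same WT libraries.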

How the results depend on the processing

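Over 38 called gene results and 1026 alternative values, 961 kept direction and call, 65 kept direction but lost the call, and 0 reversed. Of the 38, 27 were called in every alternative run. The runs reuse most of the same libraries, so they are not independent checks, and calls gained in an alternative are not in this tally. The number of aquaporins called for the TM response was 10 in WT, 12 in ire1b and 9 in ire1a1b. The shares of all tested genes called were 11.9%, 22.5% and 14.9%. In this section the share for another fit stands in brackets after its count. It is not given for runs that left out 1 library. With replicate number as a block the WT count was 21 (20.1%), with a block within each genotype 24 (28.2%), with only the 2 WT groups in the fit 4 (4.22%), without replicate 1 of every group 17 (15.2%), and with the 4 replicate 1 libraries of both WT and ire1a1b removed 19 (17.5%). The ire1a1b count was 17 (30.7%) with the block within each genotype and 14 (17.9%) without those replicate 1 libraries. The ire1b count was 18 (38.1%) with the block within each genotype and 18 (31%) with only the ire1b groups in the fit. It was 16 (23.6%) without replicate 1 of every group and 16 (33.3%) without those 4 replicate 1 libraries. Leaving out 1 library at a time gave 6 to 16 in WT, 11 to 12 in ire1b and 7 to 10 in ire1a1b.

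For the difference between ire1b and WT (4 called), the block gave 8 (7.6%; 2 higher and 6 lower), the block within each genotype 13 (12%; 7 higher and 6 lower), and the fit without the replicate 1 libraries 9 (6.28%; 3 higher and 6 lower), against 0 higher and 4 lower as reported, and leaving out 1 library gave 2 to 6. For ire1a1b against WT (3), the block gave 6 (11.4%), the block within each genotype 12 (16.9%), leaving out replicate 1 of every group 7 (7.12%) and leaving out the 4 replicate 1 libraries 9 (8.28%), and leaving out 1 library gave 3 each time. For ire1a1b against ire1b (0), the block gave 1 (1.53%), NIP5-1 (0.58, adjusted p = 0.020), and the block within each genotype 2 (3.02%). Over all groups of these comparisons, same-numbered libraries correlated as low as 0.05 for ire1b against WT and 0.01 for ire1a1b against ire1b, and within each genotype at 0.15 or more. With DMSO, ire1a1b against WT had 0 to 1 called when 1 library was left out, and the block within each genotype gives no value for the DMSO comparisons. The block ended none of the calls. RLE scaling, both other filters and DESeq2 kept each count within 1.5 times. The cause of the changed counts was not tested. With 3 libraries per group, members under about 1 CPM such as TIP3-1 had SEs above 0.5 on the log2 scale.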
